A study of Mus musculus with 72 samples.

Results

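The mitosis and spindle genes described here are 34 genes whose products carry a cell through division, from the cyclins and kinases that start mitosis to the proteins that pinch the daughter cells apart. They are a list of gene names out of 25124 genes in the RNA table. No threshold on a measured value was used, but the list was chosen with earlier results of these data known. All 34 passed the filter on low values that left 10789 genes for testing. The cells were RAW264.7, a mouse macrophage-like line made by transformation with Abelson murine leukaemia virus, carried in the labels as tissue monocyte, cell type Macrophages and genotype BALB/c. The 3 lentiviral hairpin populations were shNCOR against the corepressor NCOR, shSMRT against the related corepressor SMRT, and shGFP as the control, each maintained in serum-containing DMEM with no treatment. RNA-seq and ATAC-seq, which reads out accessible chromatin, were each done on 3 libraries per group. The populations all carry a hairpin virus, the line is an immortal dividing one, and the number of hairpins per target and whether the 3 libraries came from separate cultures are not given in the sources used here, so the tests speak only of variation among these libraries, some or all of which could be technical.

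NCOR and SMRT hold histone deacetylase 3 on nuclear receptors and other transcription factors and so keep target genes low. Transcription of mitotic genes is periodic: a complex of MuvB, B-Myb and FOXM1 raises it in G2 and M phase, and the DREAM complex, reached from p53 through the inhibitor p21, holds it down in resting cells. Both act through a promoter element called the CHR, and NF-Y binds CCAAT boxes beside it. In bulk RNA, fewer cells in G2 and M phase and less RNA per dividing cell cannot be told apart.

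RNA depth was 39.15 to 49.09 M reads per library with 90.93 to 92.83% in exons, and ATAC depth was 6.06 to 10.84 M reads with 47.65 to 55.68% in peaks. Ncor1, which encodes NCOR, measured 19.1 ± 0.973 RPKM (SD, n = 3) with the control hairpin, 4.04 ± 0.372 in shNCOR and 19.8 ± 0.748 in shSMRT, where RPKM is reads per kilobase of exon, scaled to library depth. The 10 macrophage markers were all present. Their summed level was 7845 to 8046 RPKM in shGFP, 9128 to 9437 in shNCOR and 10800 to 11390 in shSMRT. The highest value of any single marker in any library was 8363 RPKM, so 1 gene can carry most of a sum. Against shGFP, 4 of the 10 were called higher and 3 lower in shNCOR, and 8 higher and 2 lower in shSMRT. Among the 10789 genes tested, 17.6% rose and 20.0% fell in shNCOR, and 24.4% rose and 31.4% fell in shSMRT. The part of these markers in the results below was not tested. Fibroblast, epithelial and lymphocyte markers reached at most 0.136 RPKM in any library.

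The promoters of these genes share letters that most promoters lack, which is independent of the knockdowns. RefSeq windows (GRCm38.p6, 250 bases before to 50 after the start) existed for 30 members and not for Ccna2, Aurkb, Kif20a and Tpx2. The CHR core TTTGAA, read on both strands, was in 24 of the 30 member windows (80.0%) against 14.3% of 8445 tested genes with a window. The variant TTTAAA, which is its own reverse complement, was in 8 (26.7%) against 10.6%, and either form was in 27 (90.0%) against 22.2%. CCAAT, read on both strands, was in 24 (80.0%) against 43.4%, while the E2F cores TTCGCGC or TTGGCGC or TTCCCGC were in 6 (20.0%) against 17.9%. A CHR form and a CCAAT box stood together in 23 members (76.7%) against 10.3% of tested genes. Over all 32851 windows of the table, TTTGAA was in 17.9%, TTTAAA in 13.2%, CCAAT in 37.4% and an E2F core in 8.07%. Motifs were searched independently and may overlap each other by a few letters, and a match is a run of letters in a window, not a measured binding site.

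The 6 promoters printed here show the range, each 5′ to 3′ on the gene's strand with CHR forms and CCAAT boxes in capitals, whichever strand they are read on. Ccnb1, Ccnb2, Cdc20 and Plk1 were lower in both knockdowns, Birc5 had the largest change of any member in shSMRT, and Kif23 was called in neither. All 6 lie under an ATAC peak over 290 to 300 of their 300 bases.
Ccnb1 (chr13:100786437-100786736, minus strand): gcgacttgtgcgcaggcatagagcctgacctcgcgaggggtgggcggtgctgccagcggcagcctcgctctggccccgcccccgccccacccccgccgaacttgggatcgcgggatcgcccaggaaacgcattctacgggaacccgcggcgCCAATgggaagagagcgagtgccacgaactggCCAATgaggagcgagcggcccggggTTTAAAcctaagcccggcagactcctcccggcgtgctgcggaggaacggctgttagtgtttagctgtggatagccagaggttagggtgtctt
Ccnb2 (chr9:70421505-70421804, minus strand): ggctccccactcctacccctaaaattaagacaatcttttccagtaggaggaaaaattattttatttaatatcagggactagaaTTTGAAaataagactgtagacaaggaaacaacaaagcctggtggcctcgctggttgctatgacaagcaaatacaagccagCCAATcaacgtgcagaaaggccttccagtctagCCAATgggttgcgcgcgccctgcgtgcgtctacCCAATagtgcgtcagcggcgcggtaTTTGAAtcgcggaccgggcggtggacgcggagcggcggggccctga
Cdc20 (chr4:118437294-118437593, minus strand): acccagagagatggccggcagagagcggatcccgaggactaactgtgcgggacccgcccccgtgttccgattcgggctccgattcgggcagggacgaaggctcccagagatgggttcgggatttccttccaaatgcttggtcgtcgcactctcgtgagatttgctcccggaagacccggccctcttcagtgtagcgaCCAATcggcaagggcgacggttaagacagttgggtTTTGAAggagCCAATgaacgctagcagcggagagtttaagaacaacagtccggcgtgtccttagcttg
Plk1 (chr7:122159185-122159484, plus strand): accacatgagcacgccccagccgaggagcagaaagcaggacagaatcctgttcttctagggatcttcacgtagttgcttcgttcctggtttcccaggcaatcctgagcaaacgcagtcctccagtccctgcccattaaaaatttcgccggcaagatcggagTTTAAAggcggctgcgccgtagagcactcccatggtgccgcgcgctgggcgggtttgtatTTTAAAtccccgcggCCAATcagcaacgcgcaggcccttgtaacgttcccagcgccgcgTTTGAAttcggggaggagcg
Birc5 (chr11:117848987-117849286, plus strand): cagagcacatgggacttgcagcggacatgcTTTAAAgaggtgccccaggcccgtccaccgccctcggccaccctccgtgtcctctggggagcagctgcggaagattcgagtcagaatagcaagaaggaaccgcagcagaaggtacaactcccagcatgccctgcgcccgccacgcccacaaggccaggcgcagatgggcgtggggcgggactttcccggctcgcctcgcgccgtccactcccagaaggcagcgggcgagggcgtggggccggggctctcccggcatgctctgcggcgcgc
Kif23 (chr9:61946750-61947049, minus strand): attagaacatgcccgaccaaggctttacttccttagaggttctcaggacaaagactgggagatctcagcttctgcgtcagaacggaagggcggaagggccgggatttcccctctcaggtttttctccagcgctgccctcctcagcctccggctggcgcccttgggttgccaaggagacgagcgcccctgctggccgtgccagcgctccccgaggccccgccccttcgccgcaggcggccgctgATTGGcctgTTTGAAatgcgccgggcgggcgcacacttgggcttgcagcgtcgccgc

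The Ccnb2 window held 3 CCAAT boxes and 2 TTTGAA, the Plk1 window 1 CCAAT box with 1 TTTGAA and 2 TTTAAA, and the Birc5 window no CCAAT box and 1 TTTAAA. Kif23, which was called in neither knockdown, carried 1 CCAAT box and 1 TTTGAA. Among members with a window, a CHR form was in 23 of the 26 called lower in shSMRT and in 4 of the 4 others, and in 13 of the 14 called lower in shNCOR and 14 of the 16 others.

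In shSMRT nearly the whole group fell together, by a modest amount. Against shGFP, 30 of the 34 members were lower and 0 higher (limma on log2(RPKM + 1), Benjamini-Hochberg adjusted p under 0.05 over all genes), where 31.4% of all tested genes were lower and 24.4% higher. Among genes of at least 5 RPKM in shGFP, the range in which all members lie, 38.4% were lower. The median log2 fold change was -0.25 over members and -0.02 over all genes, and the 30 members called lower had dropped by 6.87 to 38.6% of their mean RPKM.

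In shNCOR the change was smaller and reached fewer members. There 16 of 34 were lower and 0 higher, against 20.0% of all tested genes lower and 17.6% higher, and 22.5% lower among genes of at least 5 RPKM. The median was -0.07 over members and 0.00 over all genes, and the called members had dropped by 8.00 to 22.0%. Both comparisons use the same shGFP libraries, so their values stand side by side and are not independent. Set directly against each other, shSMRT was below shNCOR in 25 members and above it in 0 (all genes, 29.0% lower and 22.8% higher; 35.1% lower from 5 RPKM), with a median of -0.17.

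The shift was present in each library. The median over members of the log2 ratio to the shGFP mean was -0.25, -0.28 and -0.25 in the 3 shSMRT libraries, -0.09, -0.07 and -0.11 in the shNCOR libraries and between -0.01 and 0.01 in the shGFP libraries. Over all genes the same medians lay between -0.025 and 0.003. Summed over members, shGFP held 2108 to 2118 RPKM, shNCOR 1902 to 1942 and shSMRT 1691 to 1712, so the 3 groups did not overlap.

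**Figure D1:**
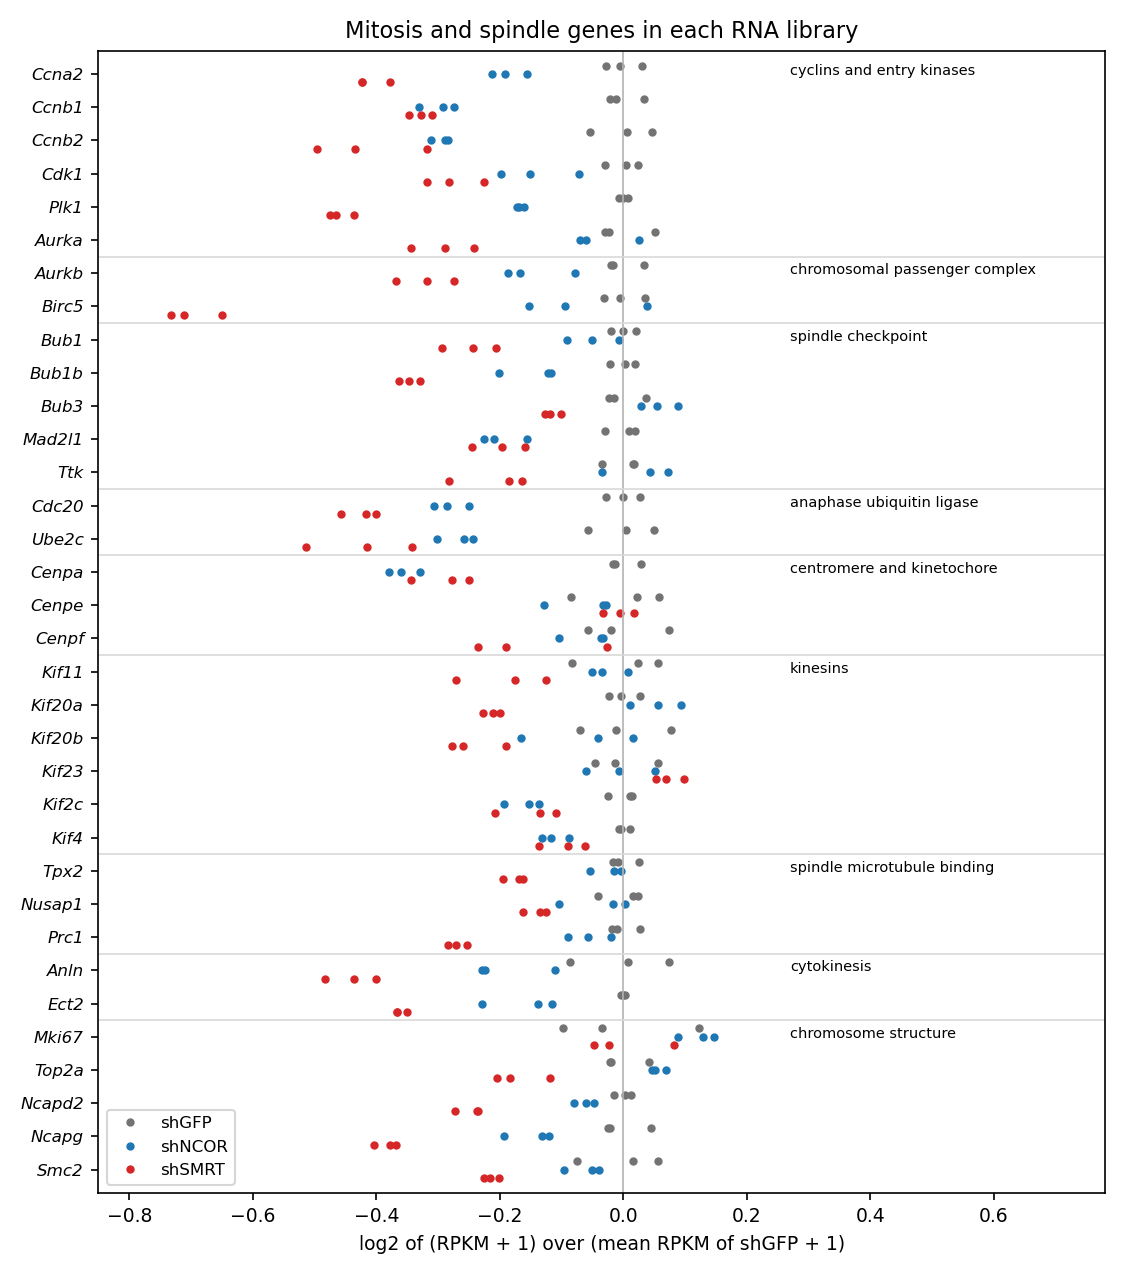
Each point is 1 RNA library; the horizontal axis is the log2 ratio of RPKM + 1 to the shGFP mean, and rows are the 34 members ordered by role. The shSMRT points lie left of the shGFP points for the 30 members called lower, with Birc5 farthest left, while Cenpe, Cenpf, Kif23 and Mki67 were not called.

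Entry into mitosis is driven by cyclins A and B with CDK1 and by the Polo-like and Aurora A kinases. All 6 genes of this role were lower in shSMRT, where 31.4% of all tested genes were lower. Plk1 (chr7:122159435-122169884, mm10), the Polo-like kinase of centrosome maturation and mitotic exit, was at 69.8, 69.5 and 70.2 RPKM in shGFP, 62.0, 61.9 and 62.3 in shNCOR and 49.9, 51.3 and 50.3 in shSMRT. Its 3 groups were fully apart, with log2 fold changes of -0.17 ± 0.02 (SE) in shNCOR (adjusted p = 2.41e-04) and -0.46 ± 0.02 in shSMRT (6.75e-08), and a difference between knockdowns of -0.29 ± 0.02 (2.15e-06). Ccna2, the S and G2 phase cyclin, followed the same order: it was at 96.6, 92.7 and 94.2 RPKM in shGFP, 82.7, 84.7 and 81.4 in shNCOR and 70.2, 70.2 and 72.5 in shSMRT, a drop of 12.2% and then 24.9%.

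Ccnb1 behaved otherwise. This B-type cyclin, the activator of CDK1, was at 99.4, 98.7 and 103 RPKM in shGFP, 81.7, 82.7 and 79.5 in shNCOR and 80.6, 78.6 and 79.6 in shSMRT. Both knockdowns were apart from the control and overlapped each other; the log2 fold changes were -0.30 ± 0.03 and -0.33 ± 0.03, and the difference between knockdowns was -0.03 ± 0.03 (adjusted p = 0.384). Ccnb2, the second B-type cyclin, was at -0.29 ± 0.04 and -0.42 ± 0.04. Its difference between knockdowns (-0.12 ± 0.04, adjusted p = 0.0336) ended as a call without any of 5 single libraries (shNCOR 1, 2 and 3, shSMRT 2 and 3; adjusted p = 0.0538 to 0.136) and under median centring (0.0532), quantile normalization (0.264), no filter on low values (0.066) or removal of the exon length trend (0.217). Cdk1 itself changed less, by -0.14 ± 0.04 in shNCOR and -0.27 ± 0.04 in shSMRT; the shNCOR call ended without shGFP 3 (adjusted p = 0.0557) or shNCOR 2 (0.059). Aurka, the Aurora kinase of the spindle poles, was at -0.29 ± 0.04 in shSMRT and -0.03 ± 0.04 in shNCOR, and the knockdowns differed by -0.26 ± 0.04 (adjusted p = 1.82e-04).

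Survivin gave the largest difference in the group. Birc5 (chr11:117849237-117855743), whose product survivin brings Aurora B to the centromere, was at 134, 131 and 128 RPKM in shGFP, 135, 123 and 118 in shNCOR and 83.2, 78.5 and 79.7 in shSMRT. The shNCOR libraries overlapped the control and all shSMRT libraries lay below both. Its log2 fold change was -0.70 ± 0.05 in shSMRT (adjusted p = 3.22e-07) and -0.07 ± 0.05 in shNCOR (0.252; 0.0166 without shNCOR 1), and the knockdowns differed by -0.63 ± 0.05 (7.1e-07). The partner kinase Aurkb fell by 9.59% in shNCOR and 20.1% in shSMRT; the shNCOR call ended under quantile normalization (adjusted p = 0.0652).

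The spindle checkpoint, which holds anaphase until every chromosome is attached, was lower in shSMRT in all 5 of its genes and in shNCOR in 2. Of all tested genes, 31.4% were lower in shSMRT and 20.0% in shNCOR. Bub1b, the gene of the checkpoint kinase-like protein BubR1, was at -0.15 ± 0.03 and -0.35 ± 0.03, with the groups apart. Mad2l1, which makes an inhibitor of CDC20, fell in both: 61.9, 61.5 and 59.8 RPKM in shGFP, 54.7, 52.1 and 52.7 in shNCOR and 54.6, 53.2 and 51.4 in shSMRT, with the knockdowns overlapping (adjusted p of their difference, 0.935). The kinase genes Bub1 (-0.25 ± 0.03) and Ttk (-0.21 ± 0.04) were called lower in shSMRT and not in shNCOR, and each differed between knockdowns (adjusted p = 5.56e-04 and 8.2e-04). Bub3, which docks the Bub kinases at kinetochores, was at -0.12 ± 0.03 in shSMRT and 0.06 ± 0.03 in shNCOR; its shSMRT call did not survive removal of the exon length trend (adjusted p = 0.0575) or quantile normalization (0.49), and the same settings called it higher in shNCOR (0.0444 and 0.007).

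Cdc20 and Ube2c, the activator and the ubiquitin-conjugating enzyme of the anaphase-promoting complex, were lower in both knockdowns. Cdc20 was at 118, 113 and 116 RPKM in shGFP, 97.1, 94.7 and 93.3 in shNCOR and 86.4, 87.4 and 84.0 in shSMRT. Ube2c, the most abundant member per length, was at 233, 223 and 240, then 196, 194 and 188, then 174, 162 and 183 RPKM. In both genes the 3 groups were apart: -0.28 ± 0.03 and -0.43 ± 0.03 for Cdc20, -0.27 ± 0.04 and -0.42 ± 0.04 for Ube2c. The Ube2c difference between knockdowns (-0.155 ± 0.043, adjusted p = 0.0103) ended as a call under 2 settings. These were removal of the exon length trend (0.108) and quantile normalization (0.196). Over all tested genes, 20.0% were lower and 17.6% higher in shNCOR, and 31.4% lower and 24.4% higher in shSMRT. Of the 13 genes of the complex's core, 3 were lower and 1 higher in shNCOR, and 6 lower and 1 higher in shSMRT. Among them Anapc5 was lower in both (-0.28 ± 0.03 and -0.40 ± 0.03), and Anapc11, the RING subunit, was higher in shSMRT (0.30 ± 0.04).

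At the centromere the 3 members parted. Cenpa (chr5:30666886-30674837), the histone H3 variant that marks centromeres, had the largest change of any member in shNCOR: 115, 112 and 112 RPKM in shGFP, 89.9, 86.8 and 88.0 in shNCOR and 93.3, 89.0 and 95.0 in shSMRT. The knockdowns overlapped each other and both were below the control (-0.36 ± 0.03, adjusted p = 4.42e-06, and -0.29 ± 0.03, 1.22e-05); between them the value was 0.07 ± 0.03 (0.0932; 0.03 without shSMRT 2, and called too under quantile normalization, 0.00445, or with the exon length trend removed, 8.99e-04). Cenpe, the kinetochore kinesin, was at 13.4, 14.6 and 14.9 RPKM, then 14.0, 14.0 and 13.0, then 14.3, 14.5 and 14.0, overlapping throughout. Cenpf, a large kinetochore protein, was at -0.06 ± 0.06 and -0.15 ± 0.06 (adjusted p = 0.0605 in shSMRT; 0.0121 without shSMRT 2, 0.0191 under quantile normalization and 0.0195 on recovered whole reads). Among 33 other kinetochore genes, 12 were lower and 1 higher in shNCOR and 23 lower and 0 higher in shSMRT. The shares of all tested genes called lower were 20.0% and 31.4%. Ska1, of the complex that tracks microtubule ends, was at 9.96 ± 0.166 RPKM in shGFP, 7.31 ± 0.145 in shNCOR and 5.48 ± 0.284 in shSMRT (-0.40 ± 0.05 and -0.76 ± 0.05).

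Kinesins move chromosomes and slide spindle microtubules. Of the 6 kinesins, 2 were lower in shNCOR and 5 in shSMRT, where 20.0% and 31.4% of all tested genes were lower. Kif20a, needed for cytokinesis, stood at 60.5, 61.8 and 59.6 RPKM in shGFP, 61.1, 64.8 and 63.1 in shNCOR and 52.2, 52.7 and 51.6 in shSMRT, so that it was below the control in shSMRT (-0.21 ± 0.03) and overlapped it in shNCOR. Kif11, the motor that separates spindle poles, was at -0.19 ± 0.05 in shSMRT, and Kif20b at -0.24 ± 0.05. Kif2c, a microtubule depolymerase, was at -0.16 ± 0.03 and -0.15 ± 0.03. Kif4, a chromosome-bound motor, was called at -0.11 ± 0.04 and -0.10 ± 0.04, but either call ended when any 1 of the shGFP libraries, or replicate 1 or 3 of the knockdown, was left out (adjusted p = 0.0593 to 0.0871 in shNCOR and 0.0724 to 0.137 in shSMRT). Kif23, the motor of the central spindle, was the exception at 37.8, 39.7 and 36.9 RPKM in shGFP, 36.5, 39.6 and 38.0 in shNCOR and 39.6, 40.1 and 40.9 in shSMRT (0.07 ± 0.04, adjusted p = 0.111; 0.0441 without shGFP 2, 0.0133 under quantile normalization).

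Tpx2, Nusap1 and Prc1, which nucleate, anchor and bundle spindle microtubules, were lower in shSMRT by 9.58 to 17.3% and none of the 3 was called in shNCOR. Prc1, the bundler of the central spindle, changed most among them (-0.27 ± 0.03). The Nusap1 difference between knockdowns (-0.10 ± 0.04, adjusted p = 0.0322) ended without any of 5 single libraries (shNCOR 1 and 2, shSMRT 1, 2 and 3; 0.0523 to 0.103). For cytokinesis, Anln, the scaffold of the contractile ring, was at 33.1, 37.2 and 35.4 RPKM in shGFP, 30.0, 32.6 and 29.9 in shNCOR and 24.9, 25.8 and 26.5 in shSMRT, and Ect2, which activates RhoA at the cell equator, fell by 10.9% and 22.9%. Both genes were called in both knockdowns. Of 37 other spindle, entry and cytokinesis genes, 14 were lower in shNCOR and 27 in shSMRT, with 0 higher in either. Over all tested genes, 20.0% and 31.4% were lower. Pttg1, the gene of securin, was at -0.40 ± 0.07 and -0.53 ± 0.07.

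Chromosome structure genes were lower in shSMRT in 4 of 5. The condensin genes Ncapg (-0.15 ± 0.03 and -0.38 ± 0.03), Ncapd2 (-0.06 ± 0.03 and -0.25 ± 0.03) and Smc2 (-0.06 ± 0.04 and -0.21 ± 0.04) were 3 of these, and Top2a, the topoisomerase that untangles sister DNA, was at 105, 109 and 105 RPKM in shGFP, 110, 112 and 110 in shNCOR and 92.2, 97.9 and 93.6 in shSMRT (-0.17 ± 0.03; not called under quantile normalization, adjusted p = 0.0707). Mki67, which coats mitotic chromosomes and is the gene of the Ki-67 proliferation marker, was called in neither: 33.8, 37.9 and 32.4 RPKM in shGFP, 37.0, 38.5 and 38.0 in shNCOR and 33.5, 36.8 and 34.1 in shSMRT. Its log2 fold change was 0.13 ± 0.05 in shNCOR (adjusted p = 0.0925) and 0.01 ± 0.05 in shSMRT (0.919). It was called higher in shNCOR without shGFP 2 (0.00874), on recovered whole reads (0.0259), with array weights (0.0347) or with the replicate block (0.0304). Between knockdowns Mki67 was at -0.12 ± 0.05 (adjusted p = 0.0898) with the libraries apart. Some settings called that difference, among them the replicate block (0.0289) and removal of the exon length trend (0.00245). Of the 15 other condensin and cohesin genes, 3 were lower in shNCOR and 8 in shSMRT, with 0 higher. The count of 3 is near the 20.0% of all tested genes lower in shNCOR, and 31.4% were lower in shSMRT.

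The 4 members not called in shSMRT include the 3 with the longest exon sequence, Cenpf (11102 bp), Mki67 (10059 bp) and Cenpe (7765 bp). Across the 34 members, Spearman's rho between log2 fold change and exon length was 0.45 in shNCOR and 0.47 in shSMRT; the members share libraries, and across all 10789 genes rho was 0.04 and 0.16. With the trend on exon length removed over all genes, rho over members was 0.35 and 0.14, and 17 members were lower in shNCOR and 31 in shSMRT. That setting called Cenpf (-0.30 ± 0.05, adjusted p = 2.5e-04) and Mki67 (-0.13 ± 0.04, 0.016) lower in shSMRT and Kif23 higher (0.09 ± 0.03, 0.0371), and left Cenpe uncalled (-0.10 ± 0.04, 0.0614). The direction of Mki67 in shSMRT changed with this choice. Level in the control varied too: rho between log2 fold change and mean RPKM in shGFP was -0.32 in shNCOR and -0.53 in shSMRT. That mean also enters the fold change. It was 7.35 RPKM for Cenpf, 14.3 for Cenpe and 34.7 for Mki67, with a median of 49.6 over members. Whether length or level goes with the uncalled members was not tested.

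**Figure D2:**
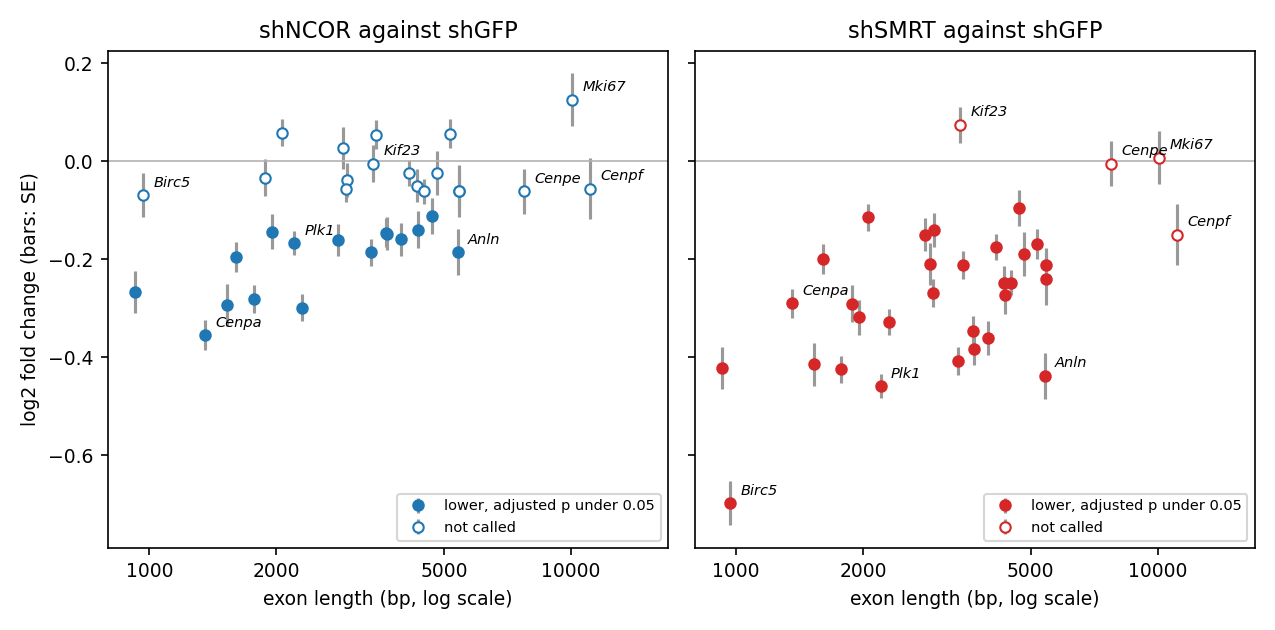
Log2 fold change (bars, SE) of each of the 34 members against its exon length on a log axis, for shNCOR and shSMRT against shGFP; filled points passed an adjusted p of 0.05. The 3 longest members, Cenpe, Cenpf and Mki67, are open points in both panels, and Birc5 is the lowest point in shSMRT.

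Of 16 regulators of mitotic transcription, 7 were lower and 1 higher in shNCOR, and 10 lower and 1 higher in shSMRT. The shares of all tested genes called lower were 20.0% and 31.4%. Foxm1, which drives G2 and M phase genes, was at -0.27 ± 0.05 and -0.16 ± 0.05 (the shSMRT call ended under quantile normalization, adjusted p = 0.117), and Mybl2, the gene of B-Myb, at -0.24 ± 0.04 and -0.38 ± 0.04. Nfya, the regulatory subunit of the CCAAT-binding factor NF-Y, separated the knockdowns: it was at 42.4 ± 0.834 RPKM in shGFP, 45.6 ± 1.12 in shNCOR and 29.5 ± 0.283 in shSMRT (0.10 ± 0.03 and -0.51 ± 0.03; difference -0.61 ± 0.03, adjusted p = 3.01e-08). Its shNCOR call ended without shGFP 1 (0.063) or shNCOR 2 (0.0705).

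Genes that slow the cycle were mostly higher in shSMRT. Of the 13 brake genes tested, 6 were higher and 3 lower in shNCOR, and 10 higher and 3 lower in shSMRT. Cdkn1c, Cdkn2a and Cdkn2b were listed at 0 in every library. Rises were called for 17.6% of the 10789 genes in shNCOR and for 24.4% in shSMRT. Falls were called for 20.0% and 31.4%, so the 3 lower brakes in shNCOR are near that share. The brakes named below all rose in shSMRT, where the lowest brake stood at -0.38. Cdkn1a, which encodes p21, was at 94.3 ± 0.271 RPKM in shGFP, 93.0 ± 2.86 in shNCOR and 149 ± 2.76 in shSMRT (-0.02 ± 0.03 and 0.66 ± 0.03; difference 0.68 ± 0.03, adjusted p = 1.05e-08). Btg1, an antiproliferative gene, rose in both, from 36.5 ± 0.646 to 87.9 ± 1.89 and 70.1 ± 0.795 RPKM (1.24 ± 0.03 and 0.92 ± 0.03). Ccng2, a cyclin that slows the cycle, went opposite ways (-0.68 ± 0.09 and 0.60 ± 0.09), and Cdkn1b, the gene of p27, rose slightly in both (0.17 ± 0.05 and 0.21 ± 0.05), the shNCOR call ending without shGFP 1, shGFP 2 or shNCOR 3 (adjusted p = 0.0582 to 0.088).

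Genes of G1 phase went both ways, while DNA replication genes were lower in 16 of 22 in shNCOR and 21 of 22 in shSMRT. Ccnd1, the growth factor-driven cyclin D1, fell from 184 ± 1.72 RPKM to 79.4 ± 2.06 in shNCOR and 117 ± 1.86 in shSMRT (-1.20 ± 0.03 and -0.65 ± 0.03), while Ccnd2 was at 0.152 ± 0.0604 in shGFP, listed at 0 in shNCOR and at 3.04 ± 0.213 in shSMRT. Ccnd2 passed the filter of 1 RPKM only through its shSMRT libraries, where it was high, so its value there is a description and no support for a rise. It is among the 13 genes counted below. Myc had a mean of 0.762 ± 0.165 RPKM in shGFP, under the filter level, and of 2.8 ± 0.315 in shSMRT (1.11 ± 0.11). Across 13 genes of the G1 list, 2 were higher and 3 lower in shNCOR, and 5 higher and 5 lower in shSMRT. The shNCOR counts are near the 17.6% of all tested genes higher and 20.0% lower there. In shSMRT, 24.4% of all tested genes were higher and 31.4% lower. Of the replication genes, 1 was higher in shNCOR and 0 in shSMRT, and those lower included Mcm2 of the replicative helicase (-0.26 ± 0.03 and -0.46 ± 0.03) and Tyms, which makes thymidylate (-0.26 ± 0.04 and -0.55 ± 0.04). No difference between lists was tested.

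**Figure D3:**
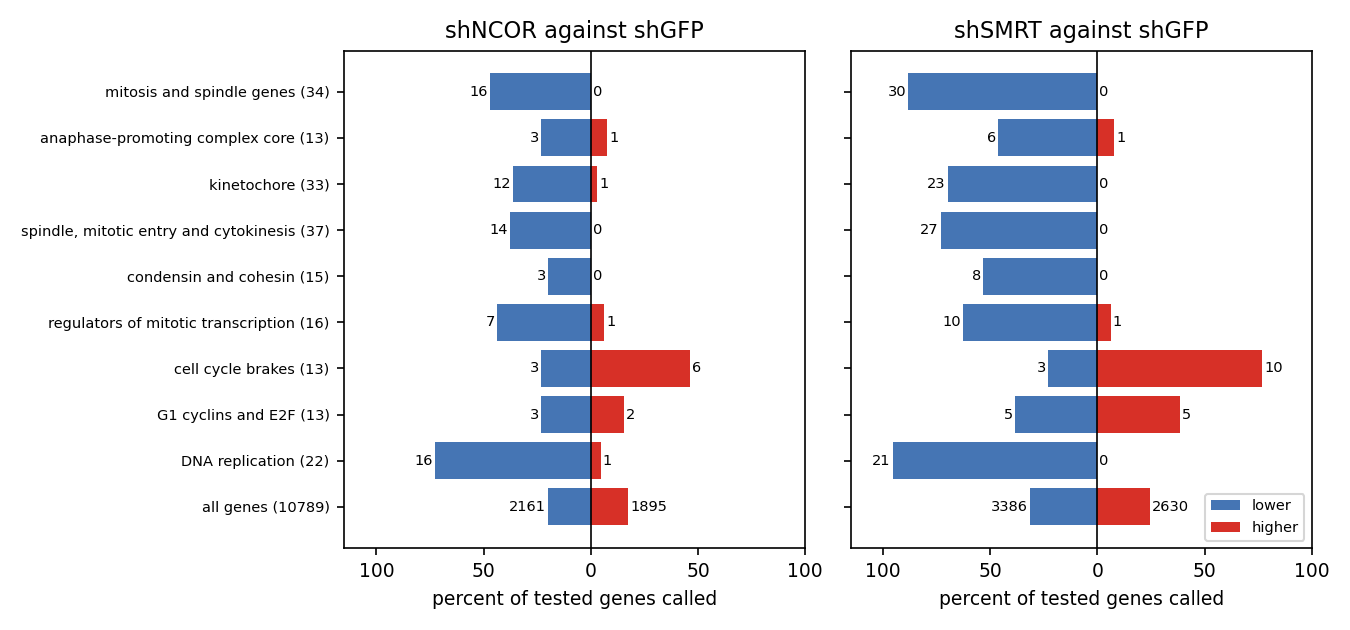
Percent of tested genes called lower (left of 0) and higher (right of 0) in each list, with the number tested in parentheses and counts beside the bars, for both knockdowns against shGFP. In shSMRT the mitosis and spindle genes (30 of 34) and the replication genes (21 of 22) extend farthest to the left, and cell cycle brakes (10 of 13) extend farthest to the right.

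Chromatin accessibility was read at 69 ATAC peaks, of which 31 are promoter peaks, the peak nearest to a member's start and within 1 kb of it. The other 38 include a second Bub1 peak 905 bp upstream of its start. The 69 peaks lay within 50 kb of 32 members by the authors' nearest-gene annotation, and 31 members had a peak within 1 kb of their start. Peaks over the starts of Aurka, Nusap1 and Ncapg are annotated to the neighbouring genes Cstf1, Oip5 and 1600023N17Rik. They were picked out after their values were seen, were not counted among the 69, and were called in neither knockdown against shGFP. Against shNCOR, those at Aurka (-0.27, adjusted p = 0.0428) and Ncapg (-0.31, 0.0133) were lower in shSMRT, and that at Nusap1 was not called (-0.20, 0.124). In shNCOR, 2 of the 69 peaks were higher and 3 lower (limma on log2(value + 5), adjusted p under 0.05), where 4.58% of all 51469 tested peaks were higher and 4.0% lower. Without shGFP 1 none of the 3 was called lower, and without shGFP 3 only 1. Of the promoter peaks, 1 was higher and 0 lower. Among all 11714 tested peaks within 1 kb of a start, 359 were higher and 1.49% lower. Both member counts are near those background shares. On data simulated for this comparison (50999 peaks), ATAC changes of 1.5-fold were recovered in 4% of cases and 2-fold in 52%. The spread was set by hand, few peaks were changed, and those changed had shGFP means above the filter level. These shares are therefore not the power of the test on the measured libraries, where smaller changes were called.

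In shSMRT 13 of the 69 peaks were lower and 2 higher, where 10.9% of all peaks were lower and 6.81% higher. Single libraries mattered to the count of 13, which was 5 without shGFP 1, 7 without shGFP 3 and 8 without shSMRT 1. Among promoter peaks, 7 were lower (Ccna2, Ccnb1, Birc5, Ttk, Kif20b, Kif4 and Mki67) and 0 higher. Among all 11714 tested peaks within 1 kb of a start, 21.8% were lower and 190 peaks were higher. The median log2 fold change was -0.21 for the 31 member promoters and -0.20 for all such peaks, so the member share is near the background. This split depends on scaling: scaled to reads in peaks, all peaks gave 4543 higher and 2800 lower in place of 3506 and 5595, the median of all peaks moved from -0.09 to 0.00, and member peaks gave 3 higher and 6 lower; of the 7 promoters, Ccna2 (adjusted p = 0.0486) and Kif20b (0.0492) were still lower. Under quantile normalization 0 of the 31 promoters were lower (Ccna2 0.158, Kif20b 0.0928), and the Kif20b call also ended without shGFP 3 (0.0594) or shSMRT 2 (0.0549). The Ccnb1 promoter peak (chr13:100786340-100786949), which covers the sequence above, was at 281, 269 and 240 reads per 10 M in shGFP, 267, 317 and 297 in shNCOR and 199, 222 and 208 in shSMRT (-0.32 ± 0.10, adjusted p = 0.0198; -0.22, 0.105 scaled to reads in peaks; 0.0658 to 0.114 without shGFP 1, shGFP 2 or shSMRT 1).

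Between the knockdowns, 26 of 69 peaks were lower and 2 higher in shSMRT, against 17.5% and 6.93% of all peaks (17 lower without shNCOR 1); 19 of 31 promoters were lower, against 41.7% of all peaks within 1 kb of a start. The promoter count was 4 of 31 when scaled to reads in peaks and 1 under quantile normalization, while all peaks within 1 kb of a start went from 4886 lower to 1271 and 643. Scaled to reads in peaks, the counts over the 69 peaks became 8 lower and 4 higher, and all peaks went from 8999 lower and 3565 higher to 2582 and 5120. Reads in peaks made up 54.72 to 55.68% of each shNCOR library, 50.57 to 54.0% of each shGFP library and 47.65 to 49.85% of each shSMRT library. Across the 31 members, Spearman's rho between RNA and promoter log2 fold change was -0.25 in shNCOR, -0.09 in shSMRT and 0.32 between the knockdowns, a description over genes that share libraries.

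**Figure D4:**
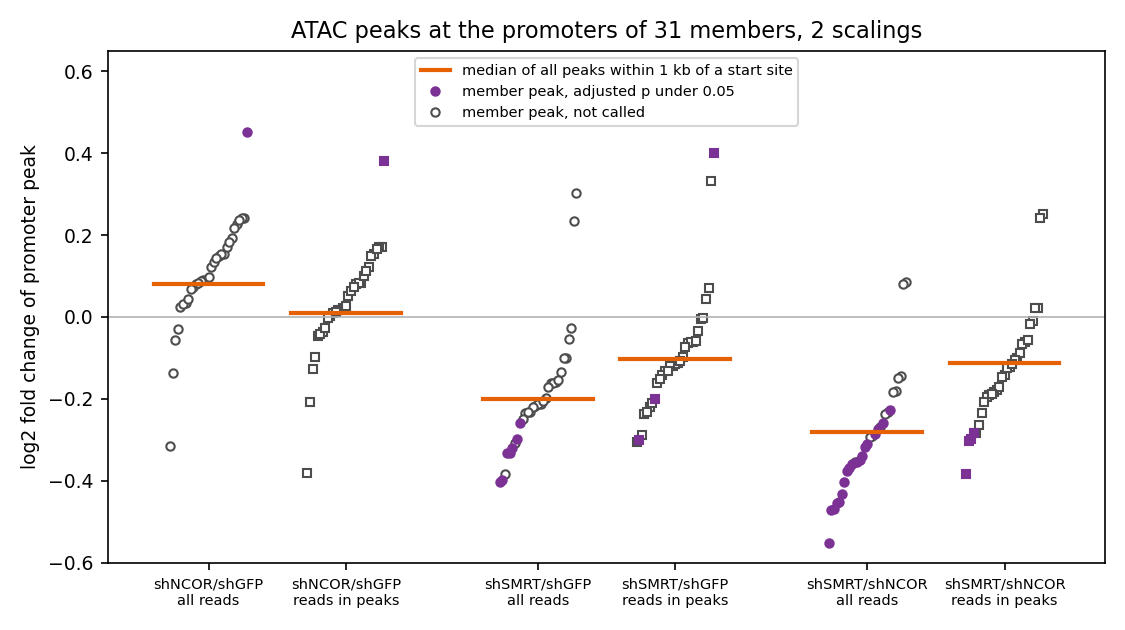
Log2 fold change of the promoter peak of 31 members in 3 comparisons, by the deposited scaling to all reads (circles) and scaled to reads in peaks (squares); purple points passed an adjusted p of 0.05 and orange lines are the median of all peaks within 1 kb of a start site. Member points lie around the orange line in each column, and the shSMRT columns move up with the second scaling.

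Kif2c had 4 assigned peaks, and 1 rose in shNCOR while 3 fell in shSMRT under each scaling tried. Its promoter peak (chr4:117182181-117183294) was at 154, 146 and 155 in shGFP, 219, 221 and 189 in shNCOR and 170, 182 and 216 in shSMRT. All knockdown libraries were above the control; the value was 0.45 ± 0.11 in shNCOR (adjusted p = 0.00652; 0.0195 scaled to reads in peaks) and 0.30 ± 0.11 in shSMRT (0.0545; 0.00806), while Kif2c RNA was lower in both. The 3 intergenic peaks upstream of it fell in shSMRT. The peak 28313 bp upstream was at 275, 303 and 301 in shGFP, 242, 276 and 271 in shNCOR and 165, 170 and 190 in shSMRT (-0.73 ± 0.10, adjusted p = 4.42e-07; -0.63, 4.52e-06 scaled to reads in peaks). Those at 20122 bp (-0.60 ± 0.09) and 7691 bp (-0.41 ± 0.08) were lower too, and none of the 3 calls ended when any single library was left out. Distance alone assigns these peaks to Kif2c.

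**Figure D5:**
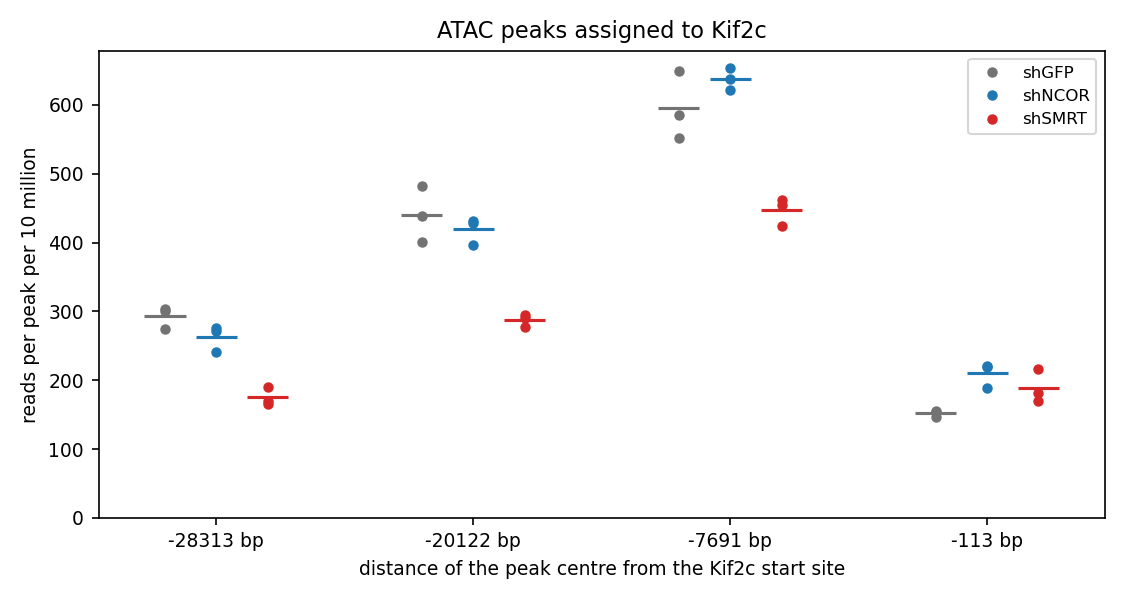
Reads per peak scaled to 10 M reads for the 4 peaks assigned to Kif2c, by distance from its start site; points are libraries and lines are group means. At the 3 upstream peaks every shSMRT library lies below every shGFP and shNCOR library, and at the promoter every shGFP library lies below the others.

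The remaining called peaks were scattered over the members. A peak 7011 bp upstream of Bub1b (chr2:118590954-118591446) rose in shSMRT, from 71.6, 40.3 and 53.5 in shGFP to 117, 109 and 96.2 (0.93 ± 0.18, adjusted p = 1.74e-04), with 84.5, 84.2 and 64.7 in shNCOR. Bub1b RNA was lower there. Another 20546 bp upstream of Cenpe rose from 6.71, 21.6 and 20.3 to 36.6, 28.4 and 72.2 (1.26 ± 0.38, adjusted p = 0.0149), a call that ended without shGFP 1 (0.164) or shSMRT 3 (0.161). In shNCOR, 3 peaks in introns annotated to another transcript, 35322, 30679 and 20712 bp from the Kif23 start, fell by 0.93, 0.75 and 0.58 on the log2 scale (adjusted p = 0.0168, 0.0103 and 0.0236). Each of these calls ended without 2 to 4 single libraries, shGFP 1 in every case (0.0511, 0.11 and 0.144). An intronic Ncapg peak was called higher in shNCOR (0.94 ± 0.31, adjusted p = 0.0466) and ended without any 1 of 7 libraries (shGFP 1, 2 and 3, shNCOR 1 and 3, shSMRT 1 and 2; 0.0515 to 0.241). In shSMRT, peaks 5337 bp upstream of Aurkb, 5825 bp upstream of Kif11 and 19805 bp upstream of Mki67 were lower (-0.28, -0.52 and -0.40). Scaled to reads in peaks, the Mki67 peak was called (adjusted p = 0.0419) and the Kif11 peak was not (0.0892). Under quantile normalization the Kif11 peak was called (0.0492) and the Mki67 peak was not (0.0941), and the Aurkb peak was called under neither (0.124 and 0.282). Each of the 3 calls also ended without shGFP 1 (0.161 for Aurkb, 0.0797 for Kif11 and 0.051 for Mki67).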

How the data were processed

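RNA-seq and ATAC-seq of RAW264.7 cells were analysed for 3 groups of 3 libraries each, 18 of the 72 samples; the other 54 were not analysed here, and the level of the gene targeted in shSMRT is not reported here. Groups were taken from sample titles; the protocol text for ATAC speaks of wild-type cells where the titles name hairpins. The RNA values are RPKM made by the authors with HOMER on mm10 exons, both strands, with 1 transcript kept per gene, per the file headers. Reads of a gene and an antisense neighbour are therefore not separated. The deposited ATAC values are reads per peak scaled by the authors to 10 M reads per library, per the file headers, over 1 shared list of peaks. The submitters' processing notes also name Bowtie2, HISAT2, MACS2, DESeq2 and mm9, with no role or version.

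From these, limma 3.58.1 in R 4.3.3 fitted a trend model to log2(RPKM + 1) for genes with at least 1 RPKM in 3 of 9 libraries, and to log2(value + 5) for peaks with at least 10 in 3 libraries, leaving out 1 unreadable peak row; fold changes are on these scales and understate changes of low features. All 9 libraries shared 1 estimate of spread, and Benjamini-Hochberg adjustment ran over all features of a comparison, with calls at 0.05. Tables and plots used Python 3.11.15, pandas 2.3.3 and matplotlib 3.10.9. On data simulated for shNCOR against shGFP (10574 genes), 68% of 1.2-fold and 98% of 1.5-fold RNA changes were recovered, with 5.7% false among calls. Those data had a spread set by hand and few changed genes, so the shares need not hold for the measured libraries. In the low values tested for it, 473 to 519 per RNA library and 4350 to 15648 per ATAC library, 100% were whole reads within 0.1. No libraries were duplicates within counting noise.

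The members and gene lists were chosen with earlier results of these data known. All members could be named; of each other list, the called genes with the largest and smallest change, at most 2 each way, plus Foxm1, Mybl2, Cdkn1a, Cdkn1b, Myc, Ccnd1 and Ncor1. Of peaks, those within 1 kb of a member's start and other called peaks within 50 kb could be named. Alternatives covered pseudocounts, filters, scalings, array weights, exon length, the replicate number and leaving out each library.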

Additional observations from a re-analysis of the deposited data

How the results depend on the processing

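In RNA, members called lower numbered 14 to 16 in shNCOR, 29 to 31 in shSMRT and 21 to 26 in shSMRT against shNCOR when any 1 library was left out, and counts over all genes stayed within 1.5 times of those reported under each alternative run. The count of members called higher, 0 in all 3 comparisons, was 0 to 1 in each when 1 library was left out. In shNCOR it was 1 with array weights, with the exon length trend removed, under quantile normalization, on recovered reads (voom) and with the replicate block. In shSMRT it was 1 with array weights, with the exon length trend removed and under quantile normalization. Between knockdowns it was 2 with the exon length trend removed, 2 under quantile normalization and 1 on recovered reads. Mki67 in shSMRT turned to -0.131 with the exon length trend removed.

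ATAC counts depended more on the settings. In shNCOR, the 3 member peaks called lower became 0 to 3 without 1 library and 0 within 10 kb or 1 kb; the 2 called higher became 1 to 2 without 1 library and 1 with no filter, a pseudocount of 1, scaling to reads in peaks, recovered reads, or either narrower window. Over all peaks there, 1156 to 2131 were lower and 1228 to 2457 higher without 1 library, and 1458 were higher when scaled to reads in peaks and 1459 on recovered reads. In shSMRT, the 13 member peaks called lower became 5 to 13 without 1 library, 4 under quantile normalization, 6 scaled to reads in peaks, 7 on recovered reads and 7 within 1 kb; the 2 higher became 1 to 3 without 1 library, 1 within 10 kb and 0 within 1 kb. All peaks lower there numbered 2710 to 6247 without 1 library, 3358 under quantile normalization, 2800 scaled to reads in peaks and 3337 on recovered reads, with 5527 higher on recovered reads. Between knockdowns, the 26 member peaks lower became 17 to 26 without 1 library, 6 under quantile normalization, 8 scaled to reads in peaks and 9 on recovered reads; the 2 higher became 1 to 3 without 1 library, 1 with a filter at 30, 4 scaled to reads in peaks and 0 within 10 kb or 1 kb. All peaks lower between knockdowns were 2401, 2582 and 2257 under those 3 settings. Under quantile normalization the promoter peaks of Ube2c, Mad2l1 and Prc1 turned to 0.006, 0.065 and 0.015 between knockdowns. Narrower windows hold fewer peaks; for the other settings the cause was not tested.

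Deviations of libraries from their group means were correlated between groups. Same-numbered libraries correlated at -0.06 to 0.1 in RNA and -0.04 to 0.02 in ATAC. Libraries with different numbers correlated at -0.13 to 0.08 and -0.04 to 0.05. These ranges overlapped, so no clear pairing by replicate number was seen. With the replicate block, 16, 31 and 26 members were lower in RNA, and 3, 11 and 23 member peaks in ATAC. A count model that had been planned was not run; the fit on recovered reads, and one that undid the limit on reads per base in ATAC, were chosen after seeing the data. In simulated data for shNCOR against shGFP, 1.5-fold changes were recovered in 4% of changed ATAC peaks and 98% of changed RNA genes. The spread was set by hand and differed between the assays, and the part of depth in this was not tested.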
